A study of Mus musculus with 6 samples.

Results

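The MCM helicase and origin licensing genes studied here are Mcm2, Mcm3, Mcm4, Mcm5, Mcm6, Mcm7, Mcm10, Cdc6, Cdt1 and Orc1. They were chosen by symbol, and all 10 had values among the 12656 genes of the table and passed the filter that left 11931 genes to test. RNA was sequenced from 4T1, a mammary carcinoma line of the mouse that the labels class as triple-negative breast cancer. The 2 groups were cells given DMSO, the solvent, and cells given LP-184, a DNA-damaging prodrug, for 48 h, with 3 libraries each. The duration is stated for LP-184 and not for DMSO. The labels name no allele and no other agent, and the model is a single cell line in culture. Nothing in the labels says that replicates are separate cultures, and the p-values then reflect only library-to-library spread, possibly technical.

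Licensing prepares DNA for replication before S phase. The origin recognition complex, whose largest subunit is Orc1, binds origins and recruits Cdc6, and Cdt1 brings in the ring of Mcm2 to Mcm7, which is loaded around DNA as an inactive double hexamer. In S phase the ring is activated with Cdc45 and the GINS complex, a step in which Mcm10 takes part, and relicensing is blocked by geminin, which binds Cdt1, and by degradation of Cdt1. Many of these genes are known targets of E2F transcription factors and are transcribed in proliferating cells around the start of S phase.

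Most licensing genes were higher with LP-184, and the loading factors Cdt1 and Cdc6 had the largest rises. Cdt1 rose 3.05-fold, Cdc6 1.77-fold and Mcm2 1.66-fold, while Mcm3, Mcm4, Mcm5, Mcm7 and Mcm10 rose by 1.20-fold to 1.40-fold. Mcm6 was 1.15-fold lower and Orc1 1.13-fold lower. By limma with Benjamini-Hochberg adjustment over all genes tested and a threshold of 0.05, 8 of the 10 were higher and 2 lower. Of all 11931 genes tested, 78.3% passed this threshold, 38.3% as higher and 40.0% as lower. The median log2 fold change was 0.35 over the 10 genes and -0.01 over all genes tested. Mcm4, Mcm5 and Mcm7 did not pass once the dependence of fold changes on gene length was removed, and Mcm7 then changed sign.

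The promoters of the 3 genes with the largest rises and of the 2 lower genes are shown so that both directions can be read side by side. Each is the RefSeq window in GRCm38.p6 from 250 bases before to 50 bases after an annotated start, and capitals mark matches to the E2F consensus.
Cdt1, chr8:122567765-122568064, forward strand: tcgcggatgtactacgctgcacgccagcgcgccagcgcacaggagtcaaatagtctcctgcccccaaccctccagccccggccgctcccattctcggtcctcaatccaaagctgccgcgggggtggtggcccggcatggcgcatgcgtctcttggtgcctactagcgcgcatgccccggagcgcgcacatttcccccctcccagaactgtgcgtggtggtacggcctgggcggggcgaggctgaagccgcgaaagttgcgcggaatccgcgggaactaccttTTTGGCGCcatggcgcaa
Cdc6, chr11:98907901-98908200, forward strand: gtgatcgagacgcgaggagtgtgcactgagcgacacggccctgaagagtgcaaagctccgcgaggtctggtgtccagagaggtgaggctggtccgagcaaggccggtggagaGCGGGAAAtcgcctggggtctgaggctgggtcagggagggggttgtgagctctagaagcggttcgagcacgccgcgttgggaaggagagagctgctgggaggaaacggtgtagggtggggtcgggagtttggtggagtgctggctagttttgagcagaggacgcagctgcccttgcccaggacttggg
Mcm2, chr6:88898731-88899030, reverse strand: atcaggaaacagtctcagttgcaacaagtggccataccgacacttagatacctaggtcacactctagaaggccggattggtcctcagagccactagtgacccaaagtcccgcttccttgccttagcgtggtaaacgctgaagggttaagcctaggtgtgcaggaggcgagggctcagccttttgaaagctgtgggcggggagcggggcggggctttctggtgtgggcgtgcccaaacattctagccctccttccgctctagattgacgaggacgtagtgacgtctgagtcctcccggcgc
Mcm6, chr1:128359656-128359955, reverse strand: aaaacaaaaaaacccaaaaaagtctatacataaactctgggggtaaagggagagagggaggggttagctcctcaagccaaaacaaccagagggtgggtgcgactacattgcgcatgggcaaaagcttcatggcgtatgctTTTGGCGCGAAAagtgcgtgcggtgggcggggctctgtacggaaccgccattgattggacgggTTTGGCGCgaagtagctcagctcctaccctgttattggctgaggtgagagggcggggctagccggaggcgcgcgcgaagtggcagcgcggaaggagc
Orc1, chr4:108579204-108579503, forward strand: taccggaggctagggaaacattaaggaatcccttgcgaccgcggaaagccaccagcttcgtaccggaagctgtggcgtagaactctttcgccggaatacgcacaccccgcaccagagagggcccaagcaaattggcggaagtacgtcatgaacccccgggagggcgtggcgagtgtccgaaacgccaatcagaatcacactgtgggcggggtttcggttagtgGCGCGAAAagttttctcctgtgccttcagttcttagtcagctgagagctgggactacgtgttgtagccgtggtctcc
The consensus was searched on both strands as TTTCCCGC, TTTCGCGC, TTTGCCGC or TTTGGCGC, and matches on opposite strands can overlap. It matched in a window of 7 of the 9 licensing genes for which a window was available, and in 2.26% of all 32851 windows of this length, or 4.16% of the 11366 windows of tested genes. The window of Cdt1 held 1 match, from base 33 after the start, and that of Cdc6 held 1, from 138 bases before it. The Cdc6 window lies wholly inside the annotated span of the gene, which begins at 98907801. Both genes that were lower also held matches, 3 in Mcm6, of which 2 overlap, and 1 in Orc1, and Mcm3 and Mcm5 held 2 each. Mcm7 has 2 windows, of which 1 held 2 matches. The windows of Mcm2 and Mcm10 held no full match. That of Mcm10 ends in tttggcg, so a match at its edge may have been cut off. TTTGAA, a cell cycle element, was present only in the window of Mcm2, 1 of the 9 genes, against 17.9% of all windows and 11.9% of those of tested genes. CCAAT, the motif of the factor NF-Y, was present in 7 of the 9 genes against 37.4% of all windows and 38.1% of those of tested genes, and was absent from the windows of Cdt1 and Cdc6. Motif matches therefore occurred in genes of either direction, and a match is a description of the letters, not of binding. No window was analysed for Mcm4.

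Among the loading factors, Cdt1 (chromosome 8, 122568015 to 122573554 in GRCm38, forward strand, the whole gene) had 85.0, 88.9 and 92.3 CPM (read counts scaled to the library size) in DMSO replicates 1 to 3 and 277, 265 and 269 CPM in LP-184 replicates 1 to 3. Every LP-184 library was above every DMSO library by about the same distance. The log2 fold change was 1.61 ± 0.03 (SE, n = 3 each; adjusted p from limma 4.1e-30), from 5217 reads in the DMSO libraries and 16988 in the LP-184 libraries. Cdt1 was the only one of the 10 genes higher by 2-fold or more, against 8.08% of all genes tested. Cdc6, the ATPase that works with Cdt1 in loading (chromosome 11, 98907801 to 98923940, forward strand), had 58.8, 56.5 and 53.4 CPM in the DMSO libraries and 101, 95.8 and 101 CPM in the LP-184 libraries. The groups did not overlap, and the log2 fold change was 0.82 ± 0.04 (SE; adjusted p from limma 2.7e-18). Orc1 (chromosome 4, 108579423 to 108614833, forward strand) had 30.7, 31.2 and 32.0 CPM in the DMSO libraries and 26.2, 29.0 and 28.2 CPM in the LP-184 libraries. Its LP-184 libraries were all lower, with replicate 1 the lowest, and the groups lay close together. The log2 fold change was -0.17 ± 0.07 (SE; adjusted p from limma 0.02), and in the authors' deposited table it was -0.17 with an adjusted p of 0.019. The call was lost with median centring (-0.08, adjusted p = 0.25), with quantile normalization (-0.08, adjusted p = 0.25), without LP-184 replicate 1 (-0.13, adjusted p = 0.1) and without DMSO replicate 3 (-0.16, adjusted p = 0.063). The sign was kept in each of these; across the alternatives the adjusted p lay between 0.014 and 0.25.

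**Figure D1:**
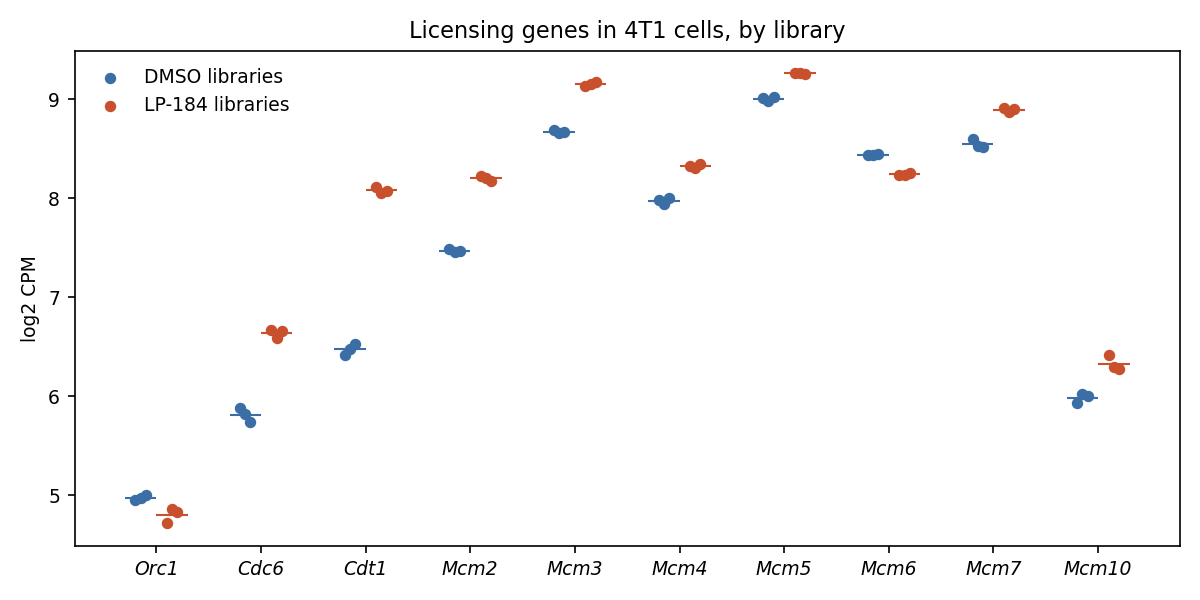
Log2 CPM (y axis) of the 10 licensing genes (x axis) in each of the 3 DMSO and 3 LP-184 libraries, shown as points, with a line at each group's mean. The largest gap between groups is that of Cdt1, and in Mcm6 and Orc1 the LP-184 points lie below the DMSO points.

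The 2 groups did not overlap for any of the 10 genes, and they did not overlap for 79.1% of all genes tested. Libraries of 1 group differed by at most 0.15 in log2 CPM (Orc1 with LP-184), and Mcm5 differed by 0.01 among its LP-184 libraries. In bulk RNA a change in the share of cells at a cell cycle stage and a change in RNA per cell cannot be told apart.

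Of the 6 subunits of the helicase ring, 5 were higher and Mcm6 was lower, against 38.3% higher and 40.0% lower of all genes tested. With the length trend removed, Mcm2 and Mcm3 stayed higher and Mcm6 lower, while Mcm4, Mcm5 and Mcm7 did not pass. Mcm2 (chromosome 6, 88883474 to 88898780, reverse strand), a subunit that also binds histones, had 179, 175 and 177 CPM in the DMSO libraries and 299.8, 294 and 289 CPM in the LP-184 libraries. That gap was many times the spread within a group, with a log2 fold change of 0.73 ± 0.03 (SE; adjusted p from limma 7.6e-23). Mcm6 (chromosome 1, 128331590 to 128359664, reverse strand) had 346, 347 and 348 CPM in the DMSO libraries and 301, 302 and 306 CPM in the LP-184 libraries. Its DMSO libraries were nearly equal and its LP-184 libraries all lay below them, and its log2 fold change was -0.20 ± 0.02 (SE; adjusted p from limma 4.2e-09). Over the alternatives tried it stayed lower, between -0.28 and -0.11.

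The other 4 subunits had smaller rises. Mcm3 (chromosome 1, 20802968 to 20820312, reverse strand) went from 412, 403 and 406 CPM to 560.3, 571 and 579 CPM, a log2 fold change of 0.49 ± 0.02 (SE). Mcm4 (chromosome 16, 15623897 to 15637400, reverse strand), a main substrate of the kinase that fires origins, went from 253, 246 and 255 CPM to 319.9, 316 and 325 CPM (0.35 ± 0.03). In Mcm7 (chromosome 5, 138164583 to 138172422, reverse strand) the values were 386, 369 and 365 CPM in the DMSO libraries and 480.2, 467 and 477 CPM in the LP-184 libraries (0.35 ± 0.02). These 3 genes were higher in every LP-184 library than in any DMSO library. Mcm5 (chromosome 8, 75109569 to 75128439, forward strand), the most abundant by CPM, went from 514, 504 and 518 CPM to 614, 613 and 611 CPM (0.26 ± 0.02), the smallest rise of the 5. Adjusted p-values from limma for these 4 genes were 1.8e-13 or lower. The exons of Mcm7 share 321 bases with Ap4m1 and 64 bases with Cops6, both on the opposite strand and both in the table, and whether counting used strand is not stated, so reads in those bases cannot be assigned with certainty.

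Mcm10, which helps to activate the loaded helicase and is not part of the ring (chromosome 2, 4989714 to 5012791, reverse strand), had 60.9, 64.8 and 64.2 CPM in the DMSO libraries and 85.0, 78.1 and 77.5 CPM in the LP-184 libraries. LP-184 replicate 1 was the highest, and the groups did not overlap. The log2 fold change was 0.34 ± 0.05 (SE; adjusted p from limma 2.7e-08).

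**Figure D2:**
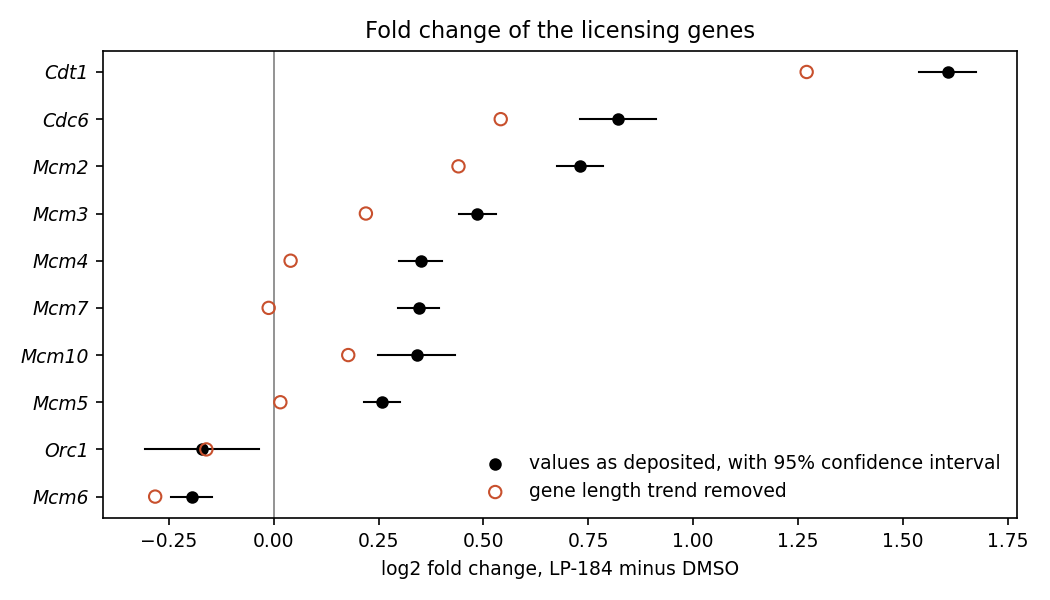
Log2 fold change, LP-184 minus DMSO (x axis), of each licensing gene (y axis), with the 95% confidence interval of the fit as a line, and the value after removal of the gene length trend as an open circle. Cdt1 stands at 1.61 and Mcm6 at -0.20, and after removal of the trend Mcm4, Mcm5 and Mcm7 lie between -0.012 and 0.04, with Mcm7 changing sign.

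In these libraries fold changes fell with the length of genes on the chromosome: across the 11462 tested genes with an annotated span, Spearman's rho between span and log2 fold change was -0.50, as a description over genes, which are not independent. The licensing genes are of short to middle length, from 5.54 kb (Cdt1) to 35.4 kb (Orc1), with a median of 16.7 kb against 21.8 kb for all genes. Across the 10 genes rho was -0.77, also a description, since all share the same 6 libraries. The trend of all genes stood between 0.24 and 0.36 at the spans of the 7 shorter licensing genes and at 0.16, 0.09 and -0.01 for Mcm10, Mcm6 and Orc1. With this trend subtracted, 5 of the 10 genes were higher and 2 lower, against 36.3% and 38.1% of the genes tested. Cdt1 kept a log2 fold change of 1.27, Cdc6 0.54, Mcm2 0.44, Mcm3 0.22 and Mcm10 0.18, and Mcm6 moved to -0.28. Mcm4 (0.04, limma adjusted p = 0.16), Mcm5 (0.02, adjusted p = 0.49) and Mcm7 (-0.012, adjusted p = 0.66) no longer passed. The part of gene length in these values was not tested.

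**Figure D3:**
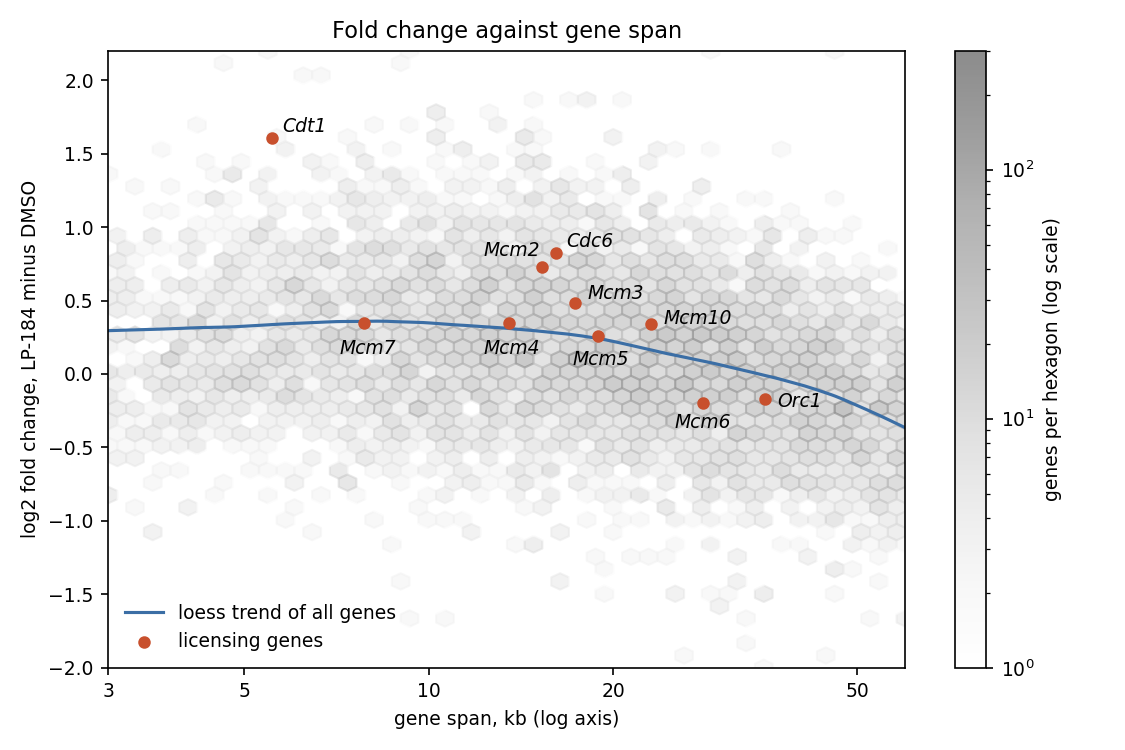
Log2 fold change, LP-184 minus DMSO (y axis), against the genomic span of each gene in kb (x axis, log scale), with the density of all genes in grey, their loess trend as a line and the licensing genes as red points. The view covers spans of 3 to 60 kb and 7781 of 11462 genes; Mcm4, Mcm5 and Mcm7 lie on the trend, Cdt1, Cdc6 and Mcm2 above it, and Mcm6 and Orc1 below it.

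Levels were compared between genes as CPM per kb of the principal transcript in the GENCODE annotation, since a longer transcript yields more reads. In DMSO the order was Mcm5 (152 ± 2.15 CPM per kb, SD, n = 3), Mcm3 (134 ± 1.55), Mcm7 (126 ± 3.77), Mcm6 (119 ± 0.366), Mcm4 (70.1 ± 1.27), Mcm2 (52.6 ± 0.618), Cdt1 (40.5 ± 1.66), Cdc6 (22.0 ± 1.06), Mcm10 (13.0 ± 0.434) and Orc1 (10.4 ± 0.211). No neighbours in this order overlapped between libraries. With LP-184 the level of Cdt1 was 123 ± 2.67 CPM per kb, which placed it above Mcm6 (104 ± 0.930), and Mcm3 (188 ± 3.11) stood above Mcm5 (181 ± 0.459). Mcm4 (89.3 ± 1.28) and Mcm2 (87.3 ± 1.60) then overlapped. Orc1 was the lowest, at 9.23 ± 0.485 CPM per kb. The summed level of Mcm2 to Mcm7 was 654 ± 7.09 CPM per kb with DMSO and 810.3 ± 3.97 with LP-184, a ratio of 1.24. The length trend was not removed from this sum. On the log2 scale, the trend of all genes stood at 0.09 at the span of Mcm6 and 0.24 to 0.36 at those of the other subunits. The part of gene span in the ratio was not tested.

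The make-up of the helicase transcripts was taken as shares. Mcm6 made up 18.0%, 18.4% and 18.3% of the summed Mcm2 to Mcm7 level per kb of principal transcript in the DMSO libraries and 12.8%, 12.9% and 12.9% in the LP-184 libraries. Mcm2 went from 8.05%, 8.04% and 8.04% to 11.0%, 10.8% and 10.5%, and Mcm3 from 20.6%, 20.6% and 20.5% to 22.8%, 23.4% and 23.5%. On average Mcm4 went from 10.7% to 11.0% and Mcm5 from 23.2% to 22.4%, and the shares of Mcm7 overlapped between groups. An exact two-sided permutation test gave p = 0.10 for each of the 5 subunits whose groups did not overlap, the smallest that 3 against 3 allows (0.12 after adjustment over 6 subunits), and p = 0.20 for Mcm7. Since Mcm6 alone fell and the other 5 rose without overlap, its share had to fall, and its p was fixed in advance. The shares are parts of 1 sum, so the 6 tests are not independent. The level of Mcm2 relative to Mcm6 was 0.441 ± 0.00620 with DMSO and 0.838 ± 0.0221 with LP-184 (SD, n = 3 each). Mcm2 was higher and Mcm6 lower in every LP-184 library than in any DMSO library, so these ratios could not overlap. The exact two-sided permutation p of 0.10 was thus fixed in advance and adds nothing to the results of each gene. This pair was 1 of 4 such ratios computed, each at this smallest possible p. Between the most and the least abundant subunit the level differed 2.88-fold with DMSO and 2.16-fold with LP-184. The trend of fold changes with gene span was not removed from the shares and ratios. Mcm6 has the longest span of the 6, 28.1 kb against 7.84 to 18.9 kb for the other 5. The part of span in the shares was not tested. These orders and shares also depend on the length used. With the union of all annotated exons as the length, an alternative chosen after seeing the data, Mcm2, whose exon union is 6956 bases against 3371 for the principal transcript, made up 5.19% of the sum with DMSO and 6.94% with LP-184, and Mcm6 15.1% and 10.7%. The most and the least abundant subunit then differed 5.03-fold with DMSO and 3.63-fold with LP-184. The order changed as well: with DMSO, Cdt1 (28.3 CPM per kb) stood above Mcm2 (25.5) and Orc1 (8.83 to 9.20) above Mcm10 (7.91 to 8.43). With LP-184, Mcm2 (42.3) no longer overlapped Mcm4 (89.3), and Mcm6 (65.0) stood below Mcm4. Cdt1 (86.1) was below Mcm4 on average, but their libraries overlapped, as did those of Mcm3 (152) and Mcm5 (153). The ratio of the summed level was 1.24 with either length, with the trend of gene span left in.

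**Figure D4:**
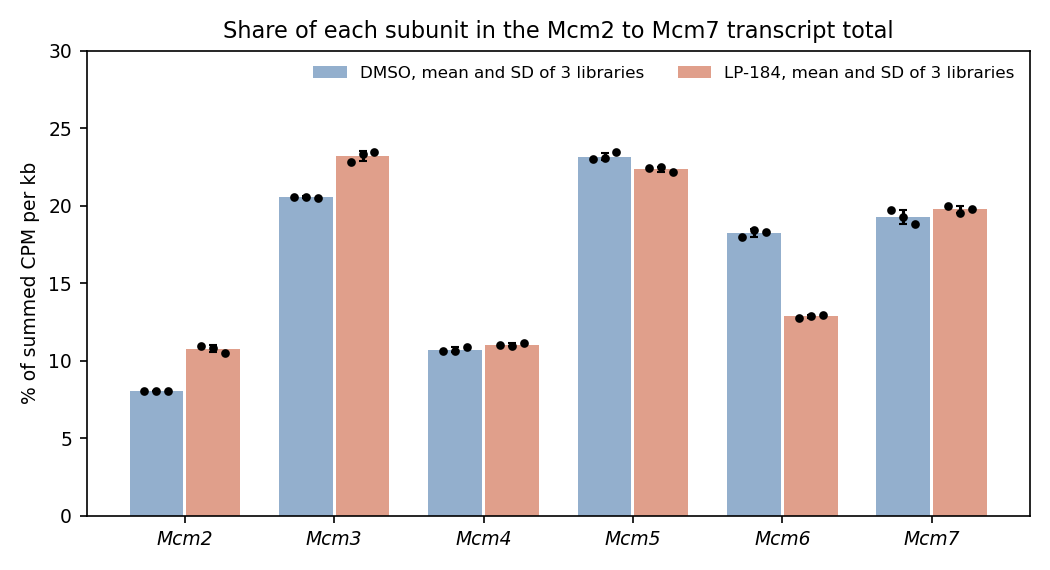
Share of each subunit in the summed CPM per kb of Mcm2 to Mcm7 (y axis, %, by principal transcript length), as the mean and SD of the 3 DMSO and the 3 LP-184 libraries (bars), with each library as a point. The share of Mcm6 is 18.2% with DMSO and 12.9% with LP-184, and that of Mcm2 8.04% and 10.8%.

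The other origin recognition subunits were mostly lower. Of these 5, Orc2 (-0.33), Orc3 (-0.70), Orc4 (-1.06) and Orc5 (-0.44) fell and Orc6 rose (0.52), all values being log2 fold changes. All 5 passed the threshold, and of all genes tested 38.3% passed as higher and 40.0% as lower. Orc4, an ATPase subunit, had the largest fall, from 135 ± 2.85 to 64.5 ± 1.44 CPM (SD, n = 3 each). The 4 that fell span 42.3 to 63.9 kb and Orc6 spans 8.65 kb. With the length trend removed Orc4 was at -0.89, Orc3 at -0.58, Orc2 at -0.23 and Orc6 at 0.16, and Orc5 did not pass (-0.02, limma adjusted p = 0.69). The calls were then 1 higher and 3 lower, against 36.3% and 38.1% of the genes tested.

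Among paralogs and partners of the helicase, Hrob, the factor that works with the Mcm8 and Mcm9 helicase in recombination, rose from 13.8 ± 0.789 to 49.9 ± 3.06 CPM (SD over 3 libraries each), or by 1.84 ± 0.07 on the log2 scale (SE). Mcm8 rose by 0.50 ± 0.08 and Mcm9, of 94.1 kb, fell by 1.15 ± 0.12 on the log2 scale. With the length trend removed Mcm9 was at -0.35. Mcmbp, which binds MCM proteins, stood at 0.04 ± 0.04 on that scale (SE; adjusted p from limma 0.41). Median centring (0.13, adjusted p = 0.01) and removal of the length trend (0.16, adjusted p = 0.0029) each took it past the threshold. Mcmdc2 was not analysed here.

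Of 15 regulators of licensing, 7 were higher, 7 lower and 1 did not pass, against 38.3% higher and 40.0% lower of all genes tested. The median was 0.05 (log2), and the 7 lower became 4 with median centring. Cul1, a ubiquitin ligase scaffold, fell by 0.83 ± 0.04 (SE), Rif1, which restrains origin firing, fell by 0.75 ± 0.04, and Fzr1, an activator of the anaphase-promoting complex, rose by 0.69 ± 0.04. With the length trend removed Cul1, of 72.7 kb, was at -0.30, Rif1 at -0.54 and Fzr1 at 0.37. Of the 14 regulators then tested, 5 were higher and 5 lower, against 36.3% and 38.1% of the genes tested. Geminin, the inhibitor of Cdt1, was singled out after its values were seen. Its gene Gmnn had 128, 124 and 118 CPM in the DMSO libraries and 96.6, 96.2 and 94.3 CPM in the LP-184 libraries, which is -0.36 ± 0.04 as a log2 fold change (SE; adjusted p from limma 7.6e-11). Cdt1 and its inhibitor thus moved in opposite directions. Per kb, the level of Cdt1 relative to Gmnn was 0.343, 0.370 and 0.404 in the DMSO libraries and 1.48, 1.42 and 1.47 in the LP-184 libraries. These are transcript levels, while both proteins are known to be controlled largely by degradation.

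Of 18 genes that fire origins, 12 were higher and 4 lower (median 0.27, log2), against 38.3% and 40.0% of all genes tested. Recql4, a helicase needed for initiation, rose from 10.6 ± 0.256 to 35.5 ± 4.22 CPM (SD over 3 libraries each), or by 1.73 ± 0.09 on the log2 scale (SE). The GINS subunit genes Gins1 (-1.88 ± 0.09) and Gins2 (-1.02 ± 0.05) fell, to 11.0 ± 1.22 and 38.8 ± 0.958 CPM. With the length trend removed 10 of the 18 were higher and 7 lower, against 36.3% and 38.1% of the genes tested.

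Of 13 genes of the E2F and RB families, 4 were higher and 7 lower (median -0.24, log2), against 38.3% and 40.0% of all genes tested. The 3 largest changes were falls: the pocket protein gene Rb1 (-3.34 ± 0.23, SE), Tfdp2, a partner of E2F (-1.52 ± 0.11), and the pocket protein gene Rbl1 (-1.11 ± 0.04). Rb1, of 142 kb, had 7.21 ± 0.518 CPM with DMSO and 0.624 ± 0.0965 CPM with LP-184 (SD, n = 3 each). All its LP-184 libraries were below the filter's log2 CPM of 0, with 39 reads in total. Rb1 was therefore tested through its DMSO libraries alone, which fixed the direction of its change in advance. With the length trend removed Rb1 was at -2.01, Rbl1 at -0.77 and Tfdp2 at -0.34. Of the 13 genes, 3 were then higher and 8 lower, against 36.3% and 38.1% of the genes tested. Among 30 other S phase genes known as E2F targets, 17 were higher and 10 lower with the values as deposited, against 38.3% and 40.0% of all genes tested. Their median was 0.11. Slbp, which binds histone mRNA, rose by 1.05 ± 0.03, and Dscc1, of the sister chromatid cohesion clamp loader, fell by 1.17 ± 0.12, as did the uracil glycosylase gene Ung by 0.91 ± 0.06. With the length trend removed 14 of these 30 were higher and 15 lower, against 36.3% and 38.1% of the genes tested.

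**Figure D5:**
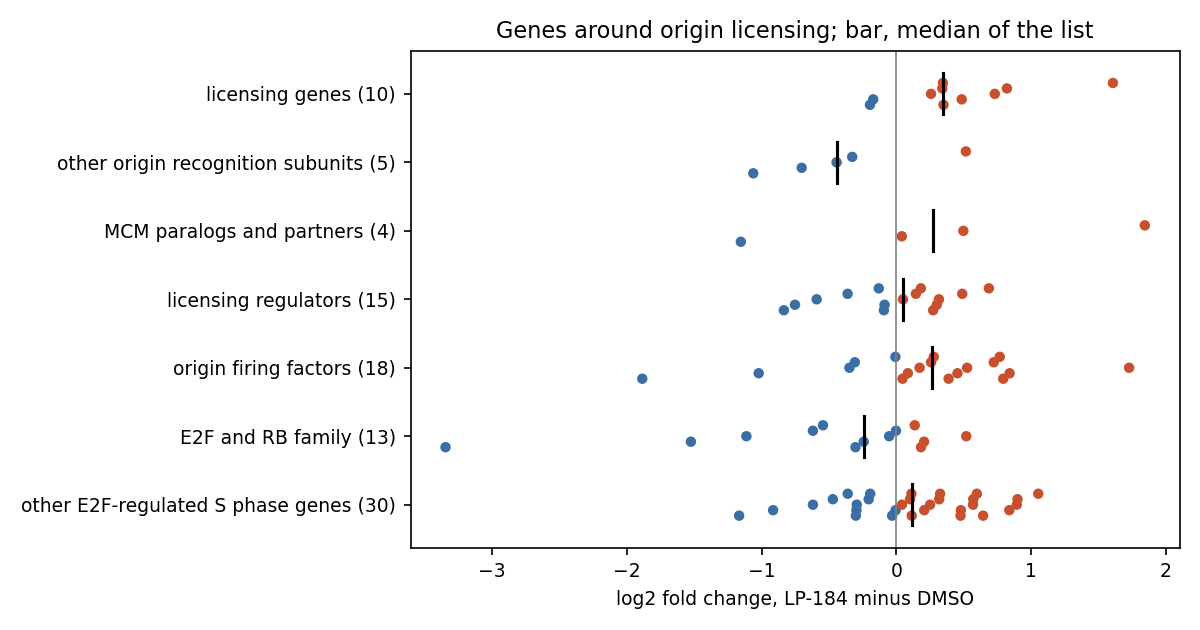
Log2 fold change, LP-184 minus DMSO (x axis), of each tested gene in the licensing genes and in 6 lists of genes around them (y axis, with the number tested), red above and blue below 0, with a bar at each median. The medians are 0.35 for the licensing genes, -0.44 for the other origin recognition subunits and 0.11 for the 30 other S phase genes.

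The libraries held 18864368 to 22471753 reads over the genes of the table. The first principal component, with 91.8% of the variance, separated the groups. All 5 epithelial markers were present, with a summed level of 2689 to 2722 CPM in DMSO and 2457 to 2475 CPM in LP-184 libraries. They went both ways: Epcam (log2 fold change 0.36), Cdh1 (0.38) and Cldn7 (0.23, but -0.07 with the length trend removed) were higher, and the more abundant Krt8 (-0.47) and Krt18 (-0.34) were lower. Of the receptors that define the breast cancer class, Esr1 and Erbb2 summed to 50.3 to 53.5 CPM with DMSO and 28.5 to 33.2 CPM with LP-184, and Pgr was not analysed here. Both were lower, Esr1 with a log2 fold change of -4.51 (620 reads with DMSO and 24 with LP-184) and Erbb2 with -0.44. Esr1 passed the filter through its DMSO libraries alone, which fixed its direction in advance. Of markers of other cells, 2 of 7 leukocyte genes (Cd68 and Lyz2, summed at 11.2 to 12.3 CPM with DMSO and 29.0 to 35.1 CPM with LP-184), 1 of 6 fibroblast genes (Pdgfra, 6.37 to 7.62 and 8.12 to 10.3 CPM) and 0 of 4 endothelial genes (Pecam1, Cdh5, Kdr and Tek) had values, and Lyz2 had 0 reads in every LP-184 library. Their part in the values above was not tested.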

How the data were processed

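Polyadenylated RNA of 6 libraries of 4T1 cells was analysed. The authors deposited log2 CPM for 12656 genes, and the submitters' processing notes list, without roles, edgeR, fastp, featureCounts, STAR 2.7 and Subread 2.0, with mm10 as the mouse build. Low-count filter, annotation and strand setting: not given in the sources used here. The authors' deposited table also holds log2 fold changes with p-values and adjusted p-values, whose test is not given there. Control columns were matched by number to the DMSO libraries, since DMSO is the other treatment in the labels.

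Removal of the authors' prior (log2 CPM of -3.34 at 0 reads) gave CPM, and 100% of values were whole reads (tolerance 0.001 reads). Genes reaching log2 CPM 0 in 3 or more libraries were fitted with limma 3.58.1 in R 4.3.3 (variance trend, two-sided, Benjamini-Hochberg over all 11931 genes). Fold changes are on the authors' log2 scale, whose prior understates changes of low genes.

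Spans, positions and principal transcripts come from GENCODE on GRCm38 (mm10), with 95.9% of symbols matched, and promoters from RefSeq on GRCm38.p6. A loess curve (span 0.3) of fold change on log10 gene span gave the length trend. Python 3.11.15 with pandas 2.3.3, scipy 1.17.1 and matplotlib 3.10.9 was used.

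The genes, lists and tests were chosen with earlier results of these data known. The 10 licensing genes are all named, members of lists of 5 or fewer may be named, and of each other list the 3 called genes with the largest change are named. The fit was tested on simulated data (LP-184 against DMSO, 11693 genes): 92.5% of genes changed 1.5-fold and 100% of those changed 2-fold or 4-fold were called, and 2.99% of calls were unchanged genes. Only 67, 67 and 66 genes were changed by these folds, at a spread set by hand, and all others were flat. In the data 78.3% of genes passed, so these rates may not hold there. Alternatives were 2 scalings, 2 pseudocounts (log2(CPM + 1) and log2(CPM + 0.1)), no filter or a minimum of 2, 2 variance models, voom, 1 library left out, the replicate number as a block, removal of the length trend and a threshold of 0.01.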

Additional observations from a re-analysis of the deposited data

How the results depend on the processing

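Cdt1, Cdc6, Mcm2, Mcm3 and Mcm10 stayed higher and Mcm6 lower, each past the threshold, under all 18 alternatives run on the fold changes. The count of licensing genes called lower was 1 in place of 2 with median centring, with quantile normalization and at an adjusted p under 0.01, and 1 to 2 when 1 library was left out, Orc1 being the gene lost each time. With the length trend removed 5 licensing genes were called higher in place of 8, and Mcm7 turned to -0.012; the cause was not tested. Median centring moved every fold change by 0.09, and among all genes the calls were then 5195 higher and 4222 lower, against 4574 and 4767. With the replicate number as a block, 8 licensing genes were higher and 2 lower, and 4550 genes were called higher and 4741 lower. Deviations of same-numbered libraries correlated at -0.01, -0.02 and -0.01, and no library correlated best with its own number. The values thus show no pairing by number, but they cannot show whether same-numbered libraries shared a culture or day. Depth allowed 1743 reads for Orc1, the least abundant gene, over 3 LP-184 libraries; precision is otherwise limited by 3 libraries a group.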
